A study of Homo sapiens with 6 samples.

Results

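Long noncoding RNAs of the cell nucleus and the host transcripts of small nucleolar RNAs (snoRNAs) were followed in H1299 cells: MALAT1, NEAT1 and TUG1, and the 7 hosts GAS5, ZFAS1, SNHG1, SNHG5, SNHG8, SNHG12 and SNHG15. They were picked by symbol, with no measured value in the rule, and all 10 were found among 19201 entries of a gene count table. H1299 is a long-established line of human lung cancer cells of the non-small cell type. RNA-seq covered 3 libraries of cells overexpressing the long noncoding RNA lncBCAS1-4_1 (OE) and 3 libraries of wild-type H1299 (Ctrl), with no vector named for the wild-type cells, so an effect of the overexpression procedure cannot be told apart from one of the RNA. The labels do not say that the replicates of a group were grown apart, so every p-value here reflects the spread among libraries, which may be technical.

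MALAT1 and NEAT1 lie side by side on chromosome 11 and stay in the nucleus, MALAT1 in nuclear speckles, which store splicing factors, and NEAT1 as the scaffold of paraspeckles. TUG1 is a spliced RNA found in both nucleus and cytoplasm. The hosts are spliced RNAs whose introns are trimmed into snoRNAs, the guides for chemical modification of ribosomal RNA, while the joined exons are exported and, in several hosts, known to be removed by nonsense-mediated decay. Many snoRNA hosts begin with a short run of pyrimidines, as ribosomal protein genes do, and are grouped with them as 5′ TOP genes.

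The 3′ ends of NEAT1 (long form) and MALAT1 show how these RNAs are built, because they are cut by RNase P and end in an A-rich tract written in the genome in place of an added poly(A) tail. For NEAT1 the last 100 bases of the annotated gene were read from GRCh38, plus strand. For MALAT1, whose annotated gene runs on past the processed end, the 100 bases were taken that close with the same last 11 bases; of 2 such places, the one sharing the longest further run with NEAT1 was used. Capitals mark those 11 bases and every run of at least 8 bases that both stretches hold. U-rich and A-rich elements in these ends are known to fold into a triple helix.
NEAT1 (chr11:65445441-65445540): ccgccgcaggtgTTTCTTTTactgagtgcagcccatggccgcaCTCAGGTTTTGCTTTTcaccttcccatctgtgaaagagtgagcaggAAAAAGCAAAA
MALAT1 (chr11:65506017-65506116): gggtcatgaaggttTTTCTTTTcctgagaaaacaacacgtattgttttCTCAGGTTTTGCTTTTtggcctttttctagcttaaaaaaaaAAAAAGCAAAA
Besides the closing bases, which chose the stretch, the 2 shared runs were 8 and 16 bases long and stood in the same order. The library kit is not given in the sources used here, so how far reads of RNAs without a poly(A) tail were kept is unknown. The signal recognition particle RNA RN7SL1, which has no such tail, had 121, 95 and 89 counts in OE and 58, 76 and 64 counts in Ctrl libraries. It passed as higher as fitted (log2 fold change 0.72, edgeR adjusted p = 0.0409; corrected 0.35, adjusted p = 0.329), but not without Ctrl replicate 1, 2 or 3 or OE replicate 1 or 2 (adjusted p of 0.0661 to 0.144). It was the 1 of 3 tested RNAs of this kind that passed, and corrected none did.

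For the hosts, the first bases of the transcript are shown. A run was searched as a C at most 5 bases from the start listed by RefSeq (GRCh38.p14), followed by at least 4 bases that are each C or T, on the gene's own strand. Starts were listed for 8 of the 10 RNAs, all but NEAT1 and SNHG15. Each line runs from 15 bases before the start and is 50 bases long, with the run in capitals.
ZFAS1 (chr20:49278627-49278676, plus strand): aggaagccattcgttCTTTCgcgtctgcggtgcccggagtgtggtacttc
SNHG8 (chr4:118278747-118278796, plus strand): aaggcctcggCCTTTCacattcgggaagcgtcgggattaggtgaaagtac
SNHG5 (chr6:85678699-85678748, minus strand): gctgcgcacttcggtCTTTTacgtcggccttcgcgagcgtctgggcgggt
SNHG12 (chr1:28581839-28581888, minus strand): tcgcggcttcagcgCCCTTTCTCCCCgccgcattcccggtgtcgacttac
SNHG1 (chr11:62855851-62855900, minus strand): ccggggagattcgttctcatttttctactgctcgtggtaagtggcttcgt
Such a run was found for ZFAS1, SNHG8, SNHG5 and SNHG12 and also for MALAT1, and it stood in 19.7% of all 35116 listed starts. In SNHG8, SNHG12 and MALAT1 it began before the listed start and reached over it. None was found for SNHG1, shown as a host without the run, or at the listed starts of TUG1 and GAS5; that of GAS5 lies outside the gene as GENCODE 44 draws it. Hosts with the run were among both the RNAs that rose and those that did not pass the test below.

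In GRCh38 coordinates of GENCODE 44, NEAT1 (chr11:65422774-65445540) and MALAT1 (chr11:65497640-65508073) lie on the plus strand, and their canonical transcripts are single exons. The hosts on the plus strand are ZFAS1 (chr20:49278178-49299600) and SNHG8 (chr4:118278703-118285316). Those on the minus strand are GAS5 (chr1:173858559-173868882), SNHG12 (chr1:28578538-28583132), SNHG1 (chr11:62851978-62855953), SNHG5 (chr6:85650491-85678932) and SNHG15 (chr7:44983019-44986961). Counts are per gene, and isoforms of a gene were not separated here.

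Total counts ran from 84531039 to 92780032 per library, and the lowest count of any of the 10 RNAs in a library was 532 (SNHG12). No entry for lncBCAS1-4_1 was analysed here. CYP24A1, named in the series title, averaged 2908 ± 591 CPM in OE and 0.778 ± 0.158 CPM in Ctrl libraries (CPM, counts scaled to 1e6 of TMM-adjusted library size; SD, n = 3 each). Of 4 tested markers of lung cancer epithelium 3 passed as higher (1 corrected), among them the keratins KRT18 and KRT7, higher in OE by 0.44 and 0.87 on the log2 scale (0.13 and 0.52 after the correction described next, of which KRT7 passed; with median transcripts both did). KRT19, the marker that did not pass, was at only 0.170 CPM in OE and 0.184 CPM in Ctrl libraries (log2 fold change -0.11). EPCAM, also listed, had no entry analysed here. Markers of fibroblasts summed to 1.44 to 2.47 CPM in OE and 1.43 to 2.22 CPM in Ctrl libraries, and those of endothelium to at most 1.73 CPM in both groups. Markers of blood cells summed to 82.2 to 91.6 CPM in OE and 72.4 to 76.9 CPM in Ctrl libraries, nearly all of it CD68, a lysosomal protein gene that other cells also use (log2 fold change 0.21; -0.055 corrected). Fold changes across all entries followed the GC content of the transcripts (Spearman correlation 0.72 over 10069 entries with a mean log2 CPM above 3). A second value is therefore given for each RNA from a fit that corrects each library for GC content and transcript length.

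Between the groups, 5 of the 10 RNAs passed the edgeR quasi-likelihood test at an adjusted p under 0.05. TUG1 fell, and the hosts GAS5, ZFAS1, SNHG8 and SNHG15 rose. NEAT1, MALAT1, SNHG1, SNHG5 and SNHG12 did not pass. Of all 19101 entries tested, 38.0% passed, 18.3% as higher and 19.7% as lower, so the share of the 10 that passed is not far above the background. The groups did not overlap for the same 5 RNAs, OE above for 4 and below for 1, against 24.7% and 26.0% of all entries. By the submitters' rule of over 2-fold with an unadjusted p under 0.05, 0 of the 10 passed, against 1.77% of all entries as higher and 1.18% as lower. The median log2 fold change of the 10 was 0.18, and that of all entries -0.0041. With the correction, 22.6% of all entries passed, 11.6% as higher and 11.1% as lower, and the 10 RNAs had 6 higher and 1 lower with a median of 0.35, against -0.012 over all entries. Levels are from bulk RNA, in which fewer cells with an RNA and less of it per cell cannot be told apart.

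**Figure D1:**
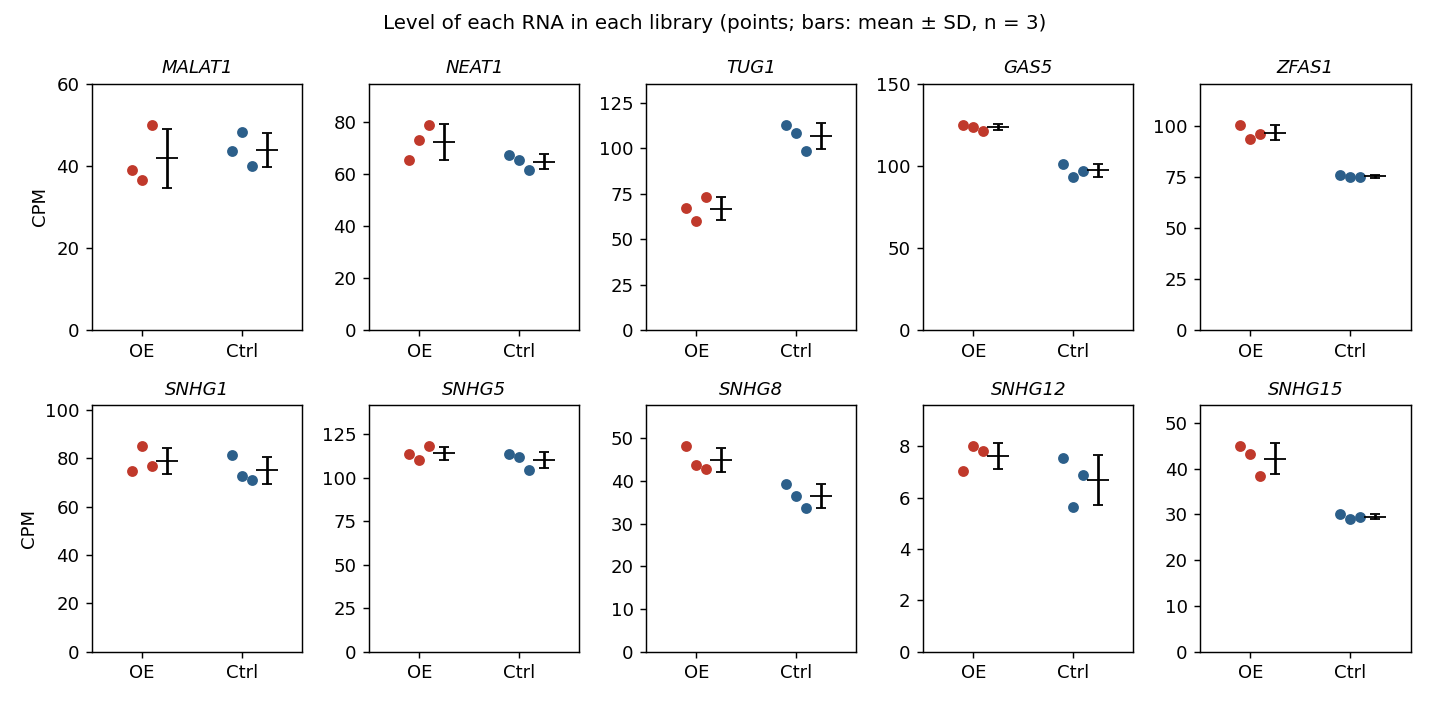
Level of each of the 10 RNAs in CPM (counts scaled to 1e6 of TMM-adjusted library size) in the 3 OE libraries (red) and the 3 Ctrl libraries (blue); bars give mean ± SD. The groups do not overlap for TUG1, GAS5, ZFAS1, SNHG8 and SNHG15, and overlap for the other 5.

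TUG1 was the one RNA of the 10 that fell. Its level was 67.4, 60.1 and 73.1 CPM in OE libraries 1 to 3, against 113, 109 and 98.7 CPM in Ctrl libraries 1 to 3. Every OE library lay below every Ctrl library, with a wide gap between the groups. The log2 fold change was -0.68 (SE 0.08, edgeR adjusted p = 0.000328), a fall to 0.626 of the Ctrl level. The 1588 other entries within 1 percentage point of the 43.1% GC of TUG1 had a median of -0.21 on the log2 scale. Corrected, TUG1 still passed as lower at -0.32 (SE 0.05, adjusted p = 0.003). TUG1 (ENSG00000253352; chr22:30969245-30979395 in GRCh38, plus strand) is listed as protein coding in GENCODE 44, although it is known mainly as a noncoding RNA.

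NEAT1 did not pass as fitted. Its level was 65.2, 73.2 and 78.9 CPM in OE libraries and 67.2, 65.2 and 61.6 CPM in Ctrl libraries, so the first OE library lay among the Ctrl values and the other two above them. The log2 fold change was 0.16 (SE 0.07, adjusted p = 0.099). Without OE replicate 1, which was the lowest of its group, it was 0.23 (adjusted p = 0.0204), and without OE replicate 3, the highest, 0.097 (adjusted p = 0.295). The DESeq2 test put NEAT1 just past the threshold (0.17, adjusted p = 0.045). Entries of like GC content had a median of -0.18, and corrected NEAT1 passed as higher at 0.61 (SE 0.05, adjusted p = 6.9e-05). With GC content and length taken as medians over its annotated transcripts, in place of the 22743-base canonical one, the corrected value was 0.37 (adjusted p = 0.000895).

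MALAT1 had 39.0, 36.5 and 50.0 CPM in OE libraries and 43.5, 48.2 and 40.0 CPM in Ctrl libraries. The groups were mixed, and both the lowest and the highest value came from OE. Its log2 fold change was -0.07 (SE 0.12, adjusted p = 0.695). Single libraries moved it: it was -0.22 (adjusted p = 0.0737) without OE replicate 3 and 0.022 (adjusted p = 0.912) without OE replicate 2. With the correction the sign turned and MALAT1 passed as higher, at 0.37 (SE 0.08, adjusted p = 0.0118). Among entries within 1 point of its GC content, 37.6% passed as lower and 3.12% as higher.

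The balance of NEAT1 against MALAT1 within a library does not depend on how libraries are scaled, but it can change with the GC and length correction. The ratio of their counts was 1.67, 2.01 and 1.58 in OE libraries and 1.54, 1.35 and 1.54 in Ctrl libraries. All OE ratios lay above all Ctrl ratios, the nearest pair by little. The mean log2 difference was 0.24, with an exact two-sided permutation p of 0.1, the smallest that 3 against 3 libraries can give. Both RNAs are rich in A and T (44.1% GC for NEAT1, 42.0% for MALAT1), and differ more in length, with canonical transcripts of 22743 and 10434 bases. Corrected log2 fold changes were 0.61 for NEAT1 and 0.37 for MALAT1. With median transcripts they lay much closer, at 0.37 and 0.31. The ratio was not tested after correction.

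**Figure D2:**
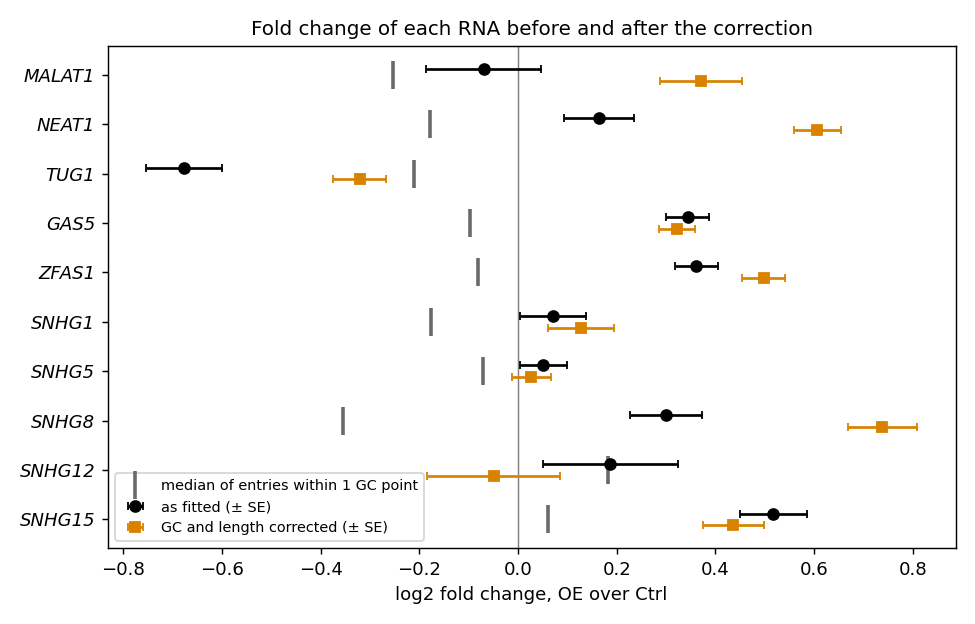
Log2 fold change (OE over Ctrl) of each RNA as fitted (black circles) and after the GC and length correction (orange squares), with SE bars; grey ticks give the median of all other entries within 1 percentage point of its GC content. TUG1 is left of 0 in both fits, GAS5, ZFAS1, SNHG8 and SNHG15 are right of 0 in both, and MALAT1 and SNHG12 cross 0.

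Among the hosts of box C/D snoRNAs, which guide methylation of ribosomal RNA, GAS5 and ZFAS1 rose. GAS5, whose body holds 11 snoRNAs in RefSeq, had 125, 124 and 122 CPM in OE libraries, against 101, 93.6 and 97.3 CPM in Ctrl libraries. ZFAS1, with 3 snoRNAs, had 101, 93.5 and 96.1 CPM in OE libraries, against 76.1, 75.1 and 74.7 CPM in Ctrl libraries. For both, every OE value was above every Ctrl value, and the gap was larger than the spread within either group. GAS5 rose 1.27-fold (log2 fold change 0.34, SE 0.04, adjusted p = 0.000487) and ZFAS1 1.28-fold (0.36, SE 0.04, adjusted p = 0.000391). Both also passed corrected, at 0.32 for GAS5 and 0.50 for ZFAS1 (adjusted p = 0.000437 and 0.000121).

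SNHG1, with 9 snoRNAs, and SNHG5, with 2, did not pass. SNHG1 had 74.9, 85.0 and 76.7 CPM in OE and 81.4, 72.8 and 71.0 CPM in Ctrl libraries, and SNHG5 had 114, 110 and 118 CPM in OE and 114, 112 and 105 CPM in Ctrl libraries. The groups overlapped for both. The log2 fold changes were 0.07 (SE 0.07, adjusted p = 0.463) for SNHG1 and 0.05 (SE 0.05, adjusted p = 0.453) for SNHG5, and the corrected values 0.13 (adjusted p = 0.218) and 0.027 (adjusted p = 0.698). With a library left out, the fitted values ran from 0.016 to 0.13 for SNHG1 and from 0.017 to 0.076 for SNHG5, none passing. With median transcript GC and length both passed, at 0.28 and 0.23 (adjusted p = 0.013 and 0.000937).

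SNHG8 and SNHG15 each hold 1 snoRNA, SNORA24 and SNORA9, both of the box H/ACA kind that guides pseudouridine formation, and both hosts rose. SNHG15 had 44.9, 43.3 and 38.5 CPM in OE libraries, against 30.1, 29.0 and 29.4 CPM in Ctrl libraries. Its 1.43-fold rise was the largest of the 10 as fitted (log2 fold change 0.52, SE 0.07, adjusted p = 0.000576; corrected 0.44, adjusted p = 0.0012). SNHG8 had 48.1, 43.8 and 42.8 CPM in OE libraries, against 39.2, 36.5 and 33.7 CPM in Ctrl libraries. No value of one group reached the other for either RNA, although for SNHG8 the gap was narrower than the range within each group. SNHG8 rose by 0.30 on the log2 scale (SE 0.07, adjusted p = 0.00985), while 50.6% of the 1390 other entries near its 39.0% GC passed as lower. Corrected, it stood at 0.74 (adjusted p = 0.000184), the highest of the 10. With median transcript GC and length SNHG8 was at 0.42 (adjusted p = 0.0017), and GAS5 was the highest at 0.56 (adjusted p = 8.5e-05).

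SNHG12, which holds SNORD99 and the H/ACA snoRNAs SNORA16A, SNORA44 and SNORA61, was the lowest of the 10. It had 7.03, 7.99 and 7.82 CPM in OE libraries and 7.56, 5.62 and 6.88 CPM in Ctrl libraries, with overlapping groups. The log2 fold change was 0.19 (SE 0.14, adjusted p = 0.333), with 0.076 to 0.28 when a library was left out, and the corrected value -0.049 (adjusted p = 0.845). Its GC content of 54.8% was the highest of the 10, and its fitted value lay at the median of 0.18 for entries of like GC content. None of the 31 snoRNAs that RefSeq places within these hosts had an entry analysed here, so host and snoRNA could not be set side by side.

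**Figure D3:**
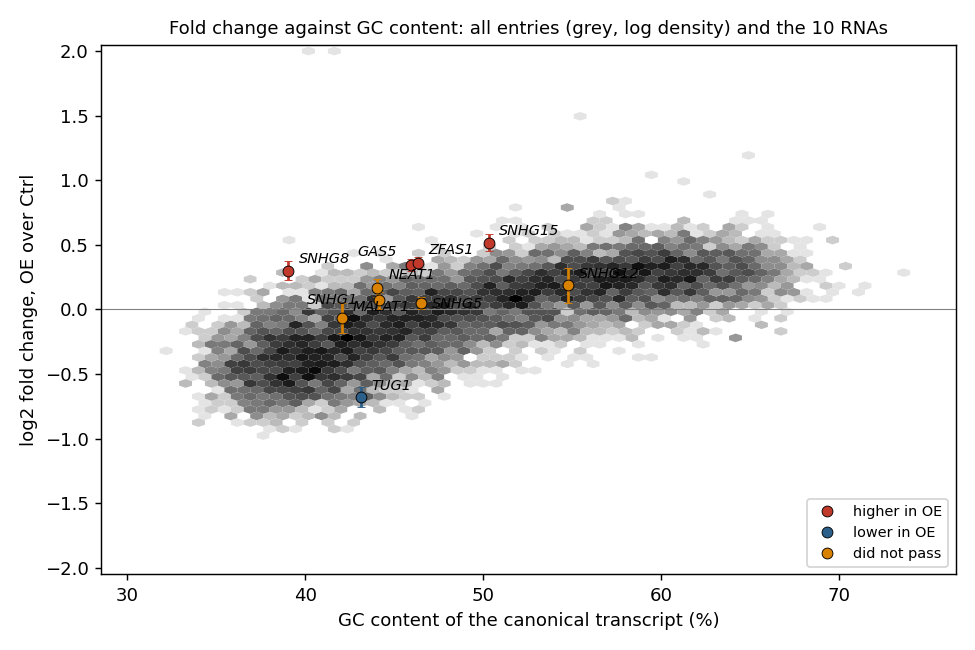
Log2 fold change as fitted against GC content of the canonical transcript, for all entries with a mean log2 CPM above 3 (grey hexagons, darker for more entries on a log scale, values past 2 in size drawn at 2) and for the 10 RNAs with SE bars (red higher, blue lower, orange did not pass). SNHG8, GAS5 and ZFAS1 sit above most entries of their GC content (medians -0.35, -0.097 and -0.080), TUG1 below its own (-0.21) and SNHG12 at its own (0.18).

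Levels between RNAs were compared as CPM per kilobase of annotated exon. In OE libraries GAS5 was highest at 25.1 ± 0.377, followed by SNHG1 (19.8 ± 1.36), ZFAS1 (11.6 ± 0.432), SNHG15 (10.7 ± 0.847) and SNHG5 (9.05 ± 0.306; SD, n = 3 each). SNHG8 (6.79 ± 0.427) and TUG1 (6.59 ± 0.639) came next, then MALAT1 (4.01 ± 0.692), NEAT1 (3.18 ± 0.303) and SNHG12 (1.78 ± 0.121). The neighbours ZFAS1 and SNHG15, SNHG8 and TUG1, and MALAT1 and NEAT1 overlapped within 1 SD. In Ctrl libraries GAS5 (19.7 ± 0.782) and SNHG1 (18.9 ± 1.40) again led and overlapped within 1 SD, and TUG1 came next at 10.5 ± 0.730. ZFAS1 (9.06 ± 0.0821) and SNHG5 (8.73 ± 0.372), which also overlapped, and SNHG15 (7.48 ± 0.143) and SNHG8 (5.51 ± 0.418) followed. MALAT1 (4.21 ± 0.392), NEAT1 (2.84 ± 0.125) and SNHG12 (1.57 ± 0.231) were again the lowest. The name "abundant" held per kilobase for GAS5 and SNHG1, above 88.3% and 86.6% of tested entries with an exon length. MALAT1 and NEAT1 were nearer the middle, above 61.6% and 56.1%, and SNHG12 above 46.4%. These ranks depend on the length used. Per kilobase of the canonical transcript, SNHG5 moved most, to above 94.5% of entries against 75.0% per kilobase of exon, and ranked between GAS5 (96.9%) and SNHG1 (92.8%), while NEAT1 was above 49.1%.

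Several of these genes share ground with others, and whether the counting used strand is not given in the sources used here. Reads from such stretches cannot be told apart. ZFAS1 shares 249 bases of exon with ZNFX1 on the opposite strand, an interferon-induced RNA sensor gene, whose RNA rose by 0.71 (log2; adjusted p = 9.2e-05; corrected 0.79). GAS5 shares 132 bases of exon with GAS5-AS1 on the opposite strand. GAS5-AS1 had 25, 29 and 39 counts in OE and 22, 57 and 47 counts in Ctrl libraries and did not pass (edgeR adjusted p = 0.58). GAS5 also overlaps ZBTB37 on the opposite strand but shares 0 bases of exon with it, and ZBTB37 fell by 0.47 (corrected 0.11, not passing). SNHG8 shares 2487 bases with the protease gene PRSS12 (log2 fold change -0.19, adjusted p = 0.055), and SNHG12 shares 8 bases with TRNAU1AP, a selenocysteine factor gene (0.22, adjusted p = 0.023). The call of TRNAU1AP was lost without Ctrl replicate 1 or 2 or OE replicate 1 or 2 (adjusted p of 0.0704 to 0.0888), and that of ZBTB37 without any one library but Ctrl replicate 3 (0.0532 to 0.138). SNHG5 shares 943 bases of exon with an entry without a symbol on its own strand, where strand would not separate the reads. That entry had 4, 100 and 96 counts in OE and 0, 607 and 10 counts in Ctrl libraries. It did not pass (edgeR adjusted p = 0.503). The part of these overlaps in the counts of the 10 RNAs was not tested.

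Next to TUG1, MORC2, 471 bases away on the other strand, fell (log2 fold change -0.16, adjusted p = 0.022; corrected -0.15), and SMTN, 84710 bases away, fell by 0.30 (corrected -0.58). The call of MORC2 was lost without Ctrl replicate 1 or 2 or OE replicate 1 or 2 (adjusted p of 0.0618 to 0.0998). Next to NEAT1, FRMD8 rose by 0.26 (corrected 0.026, not passing). Beside SNHG1, the amino acid transporter subunit gene SLC3A2, 51 bases away, rose by 0.64 (adjusted p = 9.8e-05; corrected 0.35), while SNHG1 did not pass, and WDR74 rose by 0.34 (corrected 0.013). Beside SNHG5, the RNA-binding protein gene SYNCRIP fell by 0.37 (corrected -0.15) and ZNF292, 1472871 bases away, by 0.66 (corrected -0.088). With median transcripts these were at 0.0039 (adjusted p = 0.958) for SYNCRIP and -0.31 (adjusted p = 0.0472) for ZNF292. CENPL and RC3H1, around GAS5, fell by 0.43 and 0.72 (corrected -0.32 and -0.19). With median transcripts CENPL did not pass (-0.19, adjusted p = 0.0637) and RC3H1 did (-0.38, adjusted p = 0.0189). PURB fell by 0.45 and CCM2 rose by 0.29 around SNHG15, which rose (corrected -0.0052 and -0.026).

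Other snoRNA hosts were counted from a list chosen with earlier results of these data known. Of 19 tested hosts beside the 7, 7 rose and 2 fell, with a median log2 fold change of 0.17. Corrected, 3 were higher and 1 lower, with a median of 0.10. Of all entries, 18.3% passed as higher as fitted and 11.6% corrected. SNHG7, SNHG17 and SNHG29, higher as fitted but not corrected, passed as higher with median transcripts (adjusted p = 0.0317, 0.0163 and 0.00499), while SNHG11 did not (0.287). The smallest p among those that rose was that of SNHG32, at 0.40 (SE 0.05, adjusted p = 0.000404; corrected 0.22), followed by EPB41L4A-AS1 at 0.50 (adjusted p = 0.000619; corrected 0.62, adjusted p = 0.000314). Both also passed with median transcripts, at 0.36 and 0.49 (adjusted p = 0.000353 and 0.00055). SNHG16 and SNHG4 fell by 0.15 and 0.27 (adjusted p = 0.0168 and 0.0387; corrected -0.28 and -0.14, of which SNHG16 passed). With median transcripts SNHG16 was at 0.068 (adjusted p = 0.354) and SNHG4 at -0.31 (adjusted p = 0.0261). The fall of SNHG4 did not pass without Ctrl replicate 1 or 2 or OE replicate 1 or 2 (adjusted p of 0.0774 to 0.153), nor that of SNHG16 without Ctrl replicate 2 or OE replicate 2 (adjusted p = 0.0727 and 0.0649).

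Of 11 tested noncoding RNAs that host no snoRNA in this list, none rose and 5 fell, both as fitted (median -0.41) and corrected (median -0.39). Of all entries, 19.7% passed as lower as fitted and 11.1% corrected. The same 5 RNAs, NORAD, OIP5-AS1, CYTOR, LINC-PINT and MIR4435-2HG, passed in both fits; the last 3 were named after their values were seen. With median transcripts LINC-PINT did not pass (-0.22, adjusted p = 0.0642) and NORAD only just did (-0.13, adjusted p = 0.0464). HCG18 then passed as higher (0.23, adjusted p = 0.014). NORAD, a cytoplasmic sponge of Pumilio proteins, was at 159 CPM in OE and 233 CPM in Ctrl libraries (log2 fold change -0.55, adjusted p = 0.000357; corrected -0.22). OIP5-AS1 was at 64.7 CPM in OE and 93.8 CPM in Ctrl libraries (-0.54, adjusted p = 0.000357; corrected -0.62). TUG1, which hosts no snoRNA either, moved in the same direction as these 5. MALAT1 and NEAT1, which also host none, did not: neither passed as fitted, and corrected both passed as higher (0.37 and 0.61).

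**Figure D4:**
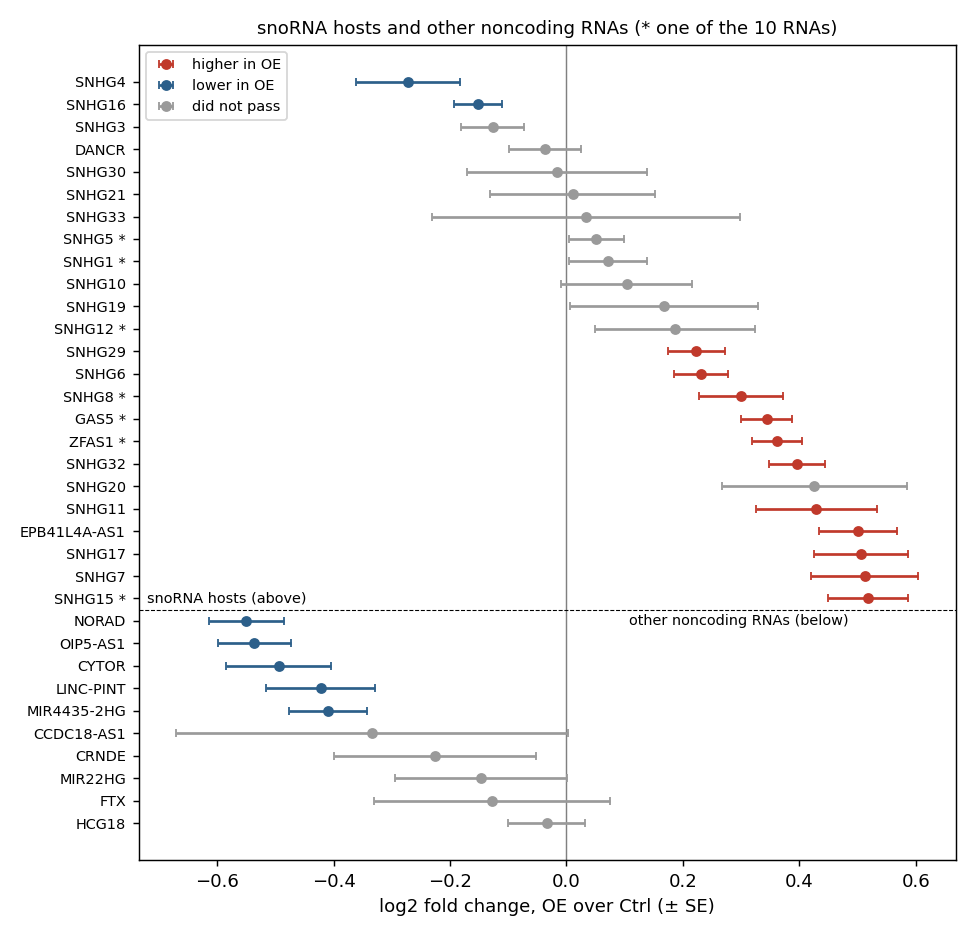
Log2 fold change as fitted (OE over Ctrl, bars SE) of 24 snoRNA hosts (above the dashed line) and 10 other noncoding RNAs (below it) whose group means sum to over 2 CPM; an asterisk marks one of the 10 RNAs followed here. Red points passed as higher, blue as lower; SNHG16 and SNHG4 are the 2 hosts that fell, and no RNA below the line rose.

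Proteins that work with these RNAs were read from further lists. Of 16 paraspeckle proteins, 2 rose and 5 fell (median log2 fold change 0.00061), and corrected 1 was higher and 3 lower. SFPQ, which binds NEAT1 and is needed for paraspeckles, fell by 0.29 (adjusted p = 0.000525; corrected -0.28, adjusted p = 0.000506), but did not pass with median transcript GC and length (-0.089, adjusted p = 0.0528). CPSF6, a cleavage factor subunit that favours the short NEAT1 form, fell by 0.34 as fitted, was at 0.14 corrected (not passing), and passed as lower at -0.16 (adjusted p = 0.0164) with median transcript GC and length. EWSR1 rose by 0.15, at -0.029 corrected (not passing). EWSR1 did not pass without Ctrl replicate 1 or 2 (adjusted p = 0.053 and 0.0586). Of 15 nuclear speckle proteins 7 fell and none rose, among them RBM25 (-0.50; -0.042 corrected, not passing; -0.21 with median transcripts, adjusted p = 0.00297) and the speckle scaffold SON (-0.33; -0.091 corrected, adjusted p = 0.0416). Corrected, 5 of the 15 were higher and 4 lower. With median transcripts the 4 stayed lower, but of the 5 only SRSF5 and SRSF7 stayed higher. SRSF6 went from 0.22 corrected (adjusted p = 0.0067) to -0.19 (adjusted p = 0.00233), and SRSF1 and SRSF3 did not pass (adjusted p = 0.176 and 0.573). Besides RBM25, SRRM2 and SRSF11 also passed as lower with median transcripts (adjusted p = 0.00498 and 0.0122).

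Of 12 factors of the MALAT1 3′ end, 5 rose and 1 fell. These were led by the RNase P subunits RPP21 (0.30) and POP7 (0.28) on the rising side, with RPP14 (-0.28) as the one that fell. Corrected, these 3 no longer passed (-0.048, -0.068 and -0.11), and 1 factor was higher and 1 lower. Of 4 genes linked to NEAT1 in innate immunity, the RNA sensors RIGI and DDX60 rose by 2.21 and 1.23 (adjusted p = 2.8e-06 and 0.000235; corrected 2.55 and 1.66). The chemokine gene CCL5 also passed, with 140, 115 and 94 counts in OE and 0, 0 and 4 counts in Ctrl libraries. CXCL8, which NEAT1 is known to induce by drawing SFPQ away from its promoter, had 13, 12 and 4 counts in OE and 13, 0 and 0 counts in Ctrl libraries and did not pass (adjusted p = 0.536).

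Of 15 proteins that build snoRNA particles, 7 rose and 3 fell, and corrected 1 was higher and 2 lower. NHP2, a core H/ACA protein, and the assembly helicase RUVBL2 rose by 0.20 and 0.25 (corrected -0.11 and -0.079, neither passing). The core box C/D protein NOP58 fell by 0.37 and the assembly factor ZNHIT6 by 0.45 (corrected -0.17, adjusted p = 0.026, and -0.0037). With median transcripts NOP58 did not pass either (-0.080, adjusted p = 0.232). Of 14 factors of nonsense-mediated decay, 5 rose and 4 fell, and corrected 3 were higher and 2 lower. SMG1, the kinase that activates the decay helicase UPF1, was at 47.4 CPM in OE and 84.9 CPM in Ctrl libraries (-0.84, SE 0.11, adjusted p = 0.000504; corrected -0.39, adjusted p = 0.00445). UPF3B fell by 0.52 (corrected -0.33), SMG9, a partner of SMG1, rose by 0.31 (adjusted p = 0.000662; corrected 0.24), and SMG5 by 0.20 (corrected 0.047, not passing). With median transcripts neither UPF3B (-0.18, adjusted p = 0.0574) nor SMG9 (0.022, adjusted p = 0.682) passed, while SMG1 did (-0.55, adjusted p = 0.000794). Of 16 subunits and adaptors of the nuclear exosome, which degrades nuclear RNA, 4 rose and 6 fell, and corrected 2 were higher and 2 lower. The helicase MTREX and its adaptor ZFC3H1 fell by 0.59 and 0.57 (corrected -0.25, adjusted p = 0.0113, and -0.16, adjusted p = 0.0781), and EXOSC5 and EXOSC4 rose by 0.41 and 0.35 (corrected 0.058 and -0.020, neither passing).

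The entries most like each RNA were found among 5973 entries with a mean log2 CPM of at least 5, by the Euclidean distance between centred log2 CPM over the 6 libraries. The closest profiles were those of TUSC2 and COPS7A to GAS5 (distances 0.031 and 0.044) and of SEPTIN11 and SUZ12 to TUG1 (0.037 and 0.052). SEC13 and BOK were nearest to ZFAS1, ALG3 and CREB3 to SNHG15, PRADC1 and SCNM1 to SNHG8, and SLU7 and CYP51A1 to NEAT1. IK and POLR3C were nearest to SNHG5, POLR1D and TBP to SNHG1, MYBL1 and VPS4B to MALAT1, and NME2 and SPCS2 to SNHG12, with distances up to 0.214. With 6 libraries in 2 groups, these distances describe profiles and carry no test.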

How the data were processed

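Per the labels' protocols, the authors cleaned reads with fastp, used HISAT2 for alignment to GRCh38 and estimated expression with StringTie after merging assemblies; how gene counts were made, tool versions, library kit and strandedness were not stated. The deposited table holds raw counts for 19201 entries, and every column was assigned to a library. Counts were tested with edgeR 4.0.16 (R 4.3.3): TMM, filterByExpr (min.count 10, min.total.count 15; 19101 entries left), quasi-likelihood F-test on the group, Benjamini-Hochberg adjustment over all entries, threshold 0.05. The SE was taken as the size of the log2 fold change over the root of its F statistic. DESeq2 1.42.0 and limma 3.58.1 (voom) were alternatives. For the correction, the log2 CPM deviations of a library were modelled by natural splines with 5 degrees of freedom on the GC content and log2 length of the canonical GENCODE 44 transcript (found for 99.3% of tested entries), which entered the fit as offsets; using medians over a gene's transcripts was added after seeing the data. No library was a repeat of another within sampling noise (replicate chi-square over its degrees of freedom, 11.4 to 22.2). IDs were looked up in GENCODE 44, where 19067 matched and 134 did not. Functions were tested on simulated data.

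The 10 RNAs, the gene lists and the correction were chosen with earlier results of these data known. Named are the 10 RNAs, up to 2 rising and 2 falling genes with the smallest p of each list, neighbouring or overlapping genes that passed, and the 2 nearest profiles of each RNA. The genes PRSS12, CCL5, CXCL8, KRT19 and GAS5-AS1, the entry overlapping SNHG5, and the noncoding RNAs so marked, were added after their values were seen. So were SRRM2, SRSF1, SRSF3, SRSF5, SRSF6, SRSF7, SRSF11, SNHG7, SNHG11, SNHG17, SNHG29 and HCG18. Some genes that this rule takes are not reported here.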

Additional observations from a re-analysis of the deposited data

How the results depend on the processing

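TUG1, GAS5, ZFAS1, SNHG8 and SNHG15 kept direction and call under size factors of DESeq2, library size alone, both other count filters, DESeq2, limma-voom, the replicate block, all versions of the correction and each left-out library. Members higher numbered 4 to 5 and lower 1 when a library was left out; over all entries this gave 2586 to 3439 higher and 2867 to 3730 lower. By the submitters' 2-fold rule with unadjusted p, 0 of the 10 were higher and 0 lower, with 338 and 226 over all entries. At an unadjusted edgeR p under 0.05 alone, 5 of the 10 were higher and 1 lower. The share of all entries at that threshold was not counted, so these counts cannot be read against a background. It is at least the 18.3% higher and 19.7% lower that passed with adjustment. The correction gave 2211 higher and 2111 lower entries, with the replicate block 1745 and 1603. With median transcripts 2489 of all entries were higher and 2356 lower, and of the 10 RNAs 8 were higher and 1 lower.

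Same-numbered libraries did not pair (correlations of deviations -0.0735, -0.262 and -0.438); the replicate block alone gave 2681 higher and 3014 lower entries and the same 5 calls among the 10. The NEAT1 to MALAT1 difference was 0.138 to 0.312 with a library left out (smallest possible p 0.2).

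Signs turned with the correction, the cause not tested, for MALAT1 (0.37; 0.364 with the block; 0.314 with median transcripts), EWSR1 (-0.0293; -0.0294), CPSF6 (0.142; 0.141), RPP21 (-0.0475; -0.0453), POP7 (-0.0676; -0.0666; -0.00179), NHP2 (-0.114; -0.114; -0.0127), RUVBL2 (-0.0793; -0.0805; -0.0464), EXOSC4 (-0.0204; -0.0196), CD68 (-0.0555; -0.0551; -0.00717), ZBTB37 (0.109; 0.111) and CCM2 (-0.0255; -0.0262), and with median transcripts alone for SNHG16 (0.068), ZNHIT6 (0.071), SMG5 (-0.0271), FRMD8 (-0.0307), SYNCRIP (0.00391) and PURB (0.0438). With the correction signs also turned for SRSF1 (0.249), SRSF3 (0.17) and SRSF6 (0.22), and back with median transcripts. With median transcripts alone the sign turned for SRRM2 (-0.19). HCG18 passed in neither fit, and its sign turned from -0.034 as fitted to 0.076 corrected. SNHG12 passed in neither fit, and its sign also turned, from 0.187 as fitted to -0.049 corrected and -0.0423 with the block. With median transcripts SNHG12 was at 0.0594. RN7SL1 (0.72, adjusted p = 0.0409) did not pass under DESeq2 (adjusted p = 0.0604), limma-voom (0.065), library size alone (0.052), or without any library but OE replicate 3 (0.0661 to 0.144).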

Other observations

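Entries named for snoRNAs themselves were few: 11 with a name in SNORD or SNORA were tested, each with a mean below 2 CPM in both groups. They were looked at after the values of the hosts were seen. Only SNORD17 passed by the edgeR test, with 49, 58 and 62 counts in OE and 187, 156 and 162 counts in Ctrl libraries (log2 fold change -1.50, SE 0.21, adjusted p = 0.000683; -1.62 corrected, adjusted p = 0.000791). SNORD17 lies in an intron of SNX5, a sorting nexin gene, itself lower in OE (log2 fold change -0.26, adjusted p = 0.00155; -0.24 corrected). The fall of the snoRNA entry was larger than that of its host, although the difference between them was not tested. The box C/D RNA SNORD3A (U3) had 14, 38 and 39 counts in OE and 20, 21 and 12 counts in Ctrl libraries and did not pass (adjusted p = 0.25).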
